A study of Mus musculus with 38 samples.

Results

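The genes of the sarcomere and the Z-disc were measured in cardiomyocytes, endothelial cells (ECs) and fibroblasts of mouse hearts after acute myocardial infarction (AMI), with and without empagliflozin (EMPA). They are 31 of the 35682 genes in the count matrix, chosen by name: a gene was included when its Ensembl identifier carried a listed symbol in the GRCm39 annotation. They form 5 groups by role. The thick filament group holds Myh6, Myh7, Myl2, Myl3, Myl4, Myl7 and Mybpc3. The thin filament group holds Actc1, Tnnt2, Tnni3, Tnnc1, Tpm1, Nebl and Lmod2. Ttn, Myom1 and Myom2 make up the titin and M-band group. Actn2, Ldb3, Tcap, Csrp3, Myoz2, Des, Nexn, Pdlim5 and Synpo2l are Z-disc structure genes. Ankrd1, Xirp1, Xirp2, Fhl2 and Smpx are stress-responsive partners of the Z-disc and the filaments.

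The sarcomere is the contractile unit of striated muscle. Myosin of the thick filament pulls on actin of the thin filament, calcium binding to the troponin complex opens the actin sites, titin spans from the Z-disc to the M-band as a molecular spring, and the Z-disc anchors the thin filaments of neighbouring sarcomeres while carrying proteins that respond to stretch. In the heart these genes belong to cardiomyocytes, so their transcripts in a sorted EC or fibroblast library can serve as a measure of cardiomyocyte RNA, apart from the few that other cells also use.

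The study used male C57BL/6 mice of 8 to 12 weeks that received vehicle or EMPA, an inhibitor of the glucose transporter SGLT2, by mouth once a day for 6 weeks. Sham mice received vehicle and had the chest opened, Control-AMI mice received vehicle followed by 30 min of coronary ligation and 2 h of reperfusion, and EMPA–Pre-AMI mice received EMPA at 10 mg/kg/d before the same ischemia and reperfusion. Each library pooled 2 hearts, and the tissue below the ligature was digested. Rod-shaped cardiomyocytes were pelleted by slow centrifugation, whereas ECs (CD45-, CD31+) and fibroblasts (CD45-, CD31-, CD90+) were sorted from the remaining suspension, which also carried cell debris. There were 13 cardiomyocyte libraries (4 Sham, 5 Control-AMI, 4 EMPA–Pre-AMI), 13 EC libraries (4, 4 and 5 in that order) and 12 fibroblast libraries (4 in each). The pellet was mainly, not purely, cardiomyocytes. In bulk libraries of this kind, fewer cells of a type and less RNA per cell cannot be told apart.

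Total counts ranged from 2031716 to 4509284 in cardiomyocytes, from 1352514 to 2195308 in ECs and from 1946056 to 2821373 in fibroblasts. The libraries carried the markers of their labels. The summed level of 12 cardiomyocyte genes outside the sarcomere was 11254 to 23137 CPM (counts scaled to library size) in cardiomyocytes, that of 10 endothelial genes was 7974 to 16485 CPM in ECs, and that of 10 fibroblast genes was 17638 to 27169 CPM in fibroblasts. Sample numbers in the labels also split the libraries over 4 lists, and the sources used here do not say what a list stands for. The study's methods state that all libraries were prepared together and run in the same sequencing session, so a list is not called a batch here. Every Sham and Control-AMI cardiomyocyte library was on list 4, while EMPA–Pre-AMI libraries 1 and 3 were on list 3, library 2 on list 2, and library 4 on list 4. In cardiomyocytes the EMPA group and the list are therefore largely the same split, and only EMPA–Pre-AMI library 4 shares a list with the other groups.

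The start regions of these genes are shown first, because muscle genes are known to share binding sequences for serum response factor (the CArG box) and for MEF2 factors. Within 250 bases before to 50 bases after the canonical transcript start in GRCm39, 4 of the 31 genes held a CArG box on either strand (12.9%), against 1.54% of 21757 protein-coding genes. A MEF2 site stood in 7 of 31 (22.6%), against 2.96% of the protein-coding genes. The MCAT element CATTCC was found in 8 of 31 (25.8%, against 14.0%), AGATAA in 3 of 31 (9.68%, against 10.6%) and TATAAA in 3 of 31 (9.68%, against 13.2%), both strands searched. A TATAAA can overlap a MEF2 site, so these searches are not independent. Stretches from 8 genes are given, each the 150 bases that end just before the transcript start, read 5′ to 3′ in the direction of transcription. Those of the first 5 genes hold a CArG box or a MEF2 site, shown in capitals, and the last 3 belong to the genes with the largest differences between EMPA–Pre-AMI and Control-AMI cardiomyocytes.
Myh6, chr14:55204226-55204375, minus strand: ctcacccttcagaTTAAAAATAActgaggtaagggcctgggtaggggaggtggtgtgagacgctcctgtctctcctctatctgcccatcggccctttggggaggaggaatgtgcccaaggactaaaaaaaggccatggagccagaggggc
Mybpc3, chr2:90948339-90948488, plus strand: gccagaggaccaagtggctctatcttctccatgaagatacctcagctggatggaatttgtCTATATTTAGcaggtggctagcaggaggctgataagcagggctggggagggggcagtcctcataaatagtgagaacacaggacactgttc
Xirp2, chr2:67276196-67276345, plus strand: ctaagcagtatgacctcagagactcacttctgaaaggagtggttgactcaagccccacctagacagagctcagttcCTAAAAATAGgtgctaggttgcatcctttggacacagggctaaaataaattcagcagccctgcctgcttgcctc
Myl3, chr9:110592559-110592708, plus strand: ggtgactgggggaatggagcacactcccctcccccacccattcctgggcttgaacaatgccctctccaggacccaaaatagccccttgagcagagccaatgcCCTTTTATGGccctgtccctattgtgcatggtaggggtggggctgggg
Myl7, chr11:5848793-5848942, minus strand: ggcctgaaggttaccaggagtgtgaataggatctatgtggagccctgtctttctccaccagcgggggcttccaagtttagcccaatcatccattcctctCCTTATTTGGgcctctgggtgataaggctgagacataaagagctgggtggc
Myoz2, chr3:122828665-122828814, minus strand: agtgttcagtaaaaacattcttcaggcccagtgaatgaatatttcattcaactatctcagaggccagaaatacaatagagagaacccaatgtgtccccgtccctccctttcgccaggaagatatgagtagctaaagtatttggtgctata
Fhl2, chr1:43236291-43236440, minus strand: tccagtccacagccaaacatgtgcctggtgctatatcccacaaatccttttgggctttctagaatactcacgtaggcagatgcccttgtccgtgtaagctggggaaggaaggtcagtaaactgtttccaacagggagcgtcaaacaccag
Smpx, chrX:156481819-156481968, plus strand: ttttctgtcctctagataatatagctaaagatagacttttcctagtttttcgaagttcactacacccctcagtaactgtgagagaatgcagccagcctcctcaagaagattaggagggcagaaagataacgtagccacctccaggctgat
Myh6, Mybpc3 and Xirp2 carry a MEF2 site, and Myl3 and Myl7 carry a CArG box. Fhl2 and Smpx held neither of these 2 sequences in the window searched, and the Myoz2 window held a MEF2 site that spans the transcript start, from base -5 to base 4 after it. These matches are descriptions of the letters in the window and do not show that a factor binds there.

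The first comparison asked how far these genes belong to cardiomyocytes. In Sham hearts every one of the 31 genes was higher in cardiomyocytes than in ECs and than in fibroblasts (edgeR, FDR < 0.05 in 31 of 31 for each), where 28.1% and 24.5% of the 12085 genes tested were higher in cardiomyocytes. The median difference over the 31 genes was 6.76 on the log2 scale against ECs and 7.28 against fibroblasts. The largest were those of Myl3, the ventricular essential light chain (chr9:110570929-110599396, plus strand), at 8.44 ± 0.69 (SE) and 9.02 ± 0.71. Its mean level, scaled across all populations, was 18776 ± 2035 CPM (SD, n = 4) in cardiomyocytes, 53.7 ± 36.1 CPM (n = 4) in ECs and 36.3 ± 25.5 CPM (n = 4) in fibroblasts. The genes were listed because heart muscle is known to use them, so their direction here checks the libraries and is no finding.

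The genes did not stand at the same small share in the other populations. The median gene had 0.897% of its cardiomyocyte level in ECs and 0.597% in fibroblasts. Pdlim5, a Z-disc adaptor with PDZ and LIM domains (chr3:141945345-142101830, minus strand), stood at 13.2% in ECs and 10.6% in fibroblasts and had the smallest differences of the list, 2.92 ± 0.24 and 3.23 ± 0.24 (log2, SE). Nebl, which encodes nebulette, an actin-binding relative of nebulin, reached 4.93% in ECs but 0.559% in fibroblasts. Nexn, an actin-binding protein of the Z-disc, reached 3.76% in fibroblasts and 1.82% in ECs. The atrial light chains Myl7 and Myl4 reached 7.77% and 6.78% in fibroblasts and 3.10% and 2.15% in ECs.

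**Figure D1:**
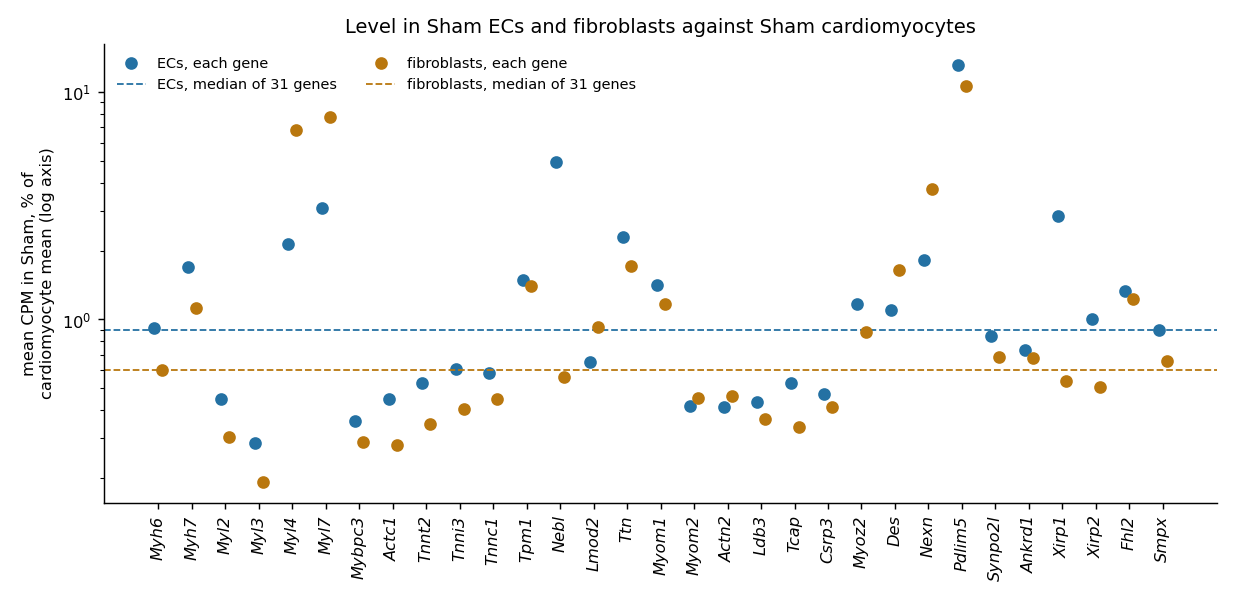
Mean level of each of the 31 genes in Sham ECs (blue) and Sham fibroblasts (orange) as a percent of its mean in Sham cardiomyocytes, on a log axis, with n = 4 libraries in each population. Dashed lines mark the medians over the 31 genes, 0.897% and 0.597%, and Pdlim5 stands highest at 13.2% and 10.6%.

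A ratio to Myh6, the adult alpha myosin heavy chain, was taken within each library. It leaves out how much cardiomyocyte RNA a library holds only for genes whose counts all come from that RNA. For a gene with another source, the ratio also rises as Myh6 falls. In fibroblasts the Pdlim5 ratio ran from 0.333 to 7.84, while Pdlim5 was at 65.9 to 189 CPM and Myh6 at 18.5 to 198 CPM. Over the other 30 genes, the median ratio in ECs divided by the median ratio in cardiomyocytes had a median of 1.01, and 22 of the 30 lay within 2-fold of 1. Of the 30, 15 lay above 1. Myl3 was among those under it, at 0.326 times the cardiomyocyte ratio. Pdlim5 stood 22.8 times, Nebl 6.75 times and Myl4 5.98 times above the cardiomyocyte ratio, and for Nebl, Nexn and Pdlim5 every EC library lay above the highest cardiomyocyte library. In fibroblasts the median was 0.795, and 16 of the 30 lay within 2-fold. There 13 lay above 1, and Myl3 was at 0.367 times the cardiomyocyte ratio. Pdlim5 stood 26.9 times, Nexn 8.22 times, Myl7 6.12 times and Myl4 5.34 times above the cardiomyocyte ratio. Every fibroblast library lay above the highest cardiomyocyte library for Pdlim5, Nexn and Des, which encodes the intermediate filament desmin. These ratios rest on small counts for the weaker genes and are given as a description.

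The share of the atrial light chain was also taken within each library. Myl7 made up 0.422% to 6.80% of the sum of Myl2 and Myl7 counts over the 13 cardiomyocyte libraries, with a median of 1.41%. The same share was 0% to 18.5% over the 13 EC libraries (median 7.48%) and 3.51% to 46.3% over the 12 fibroblast libraries (median 16.2%). These shares rest on 0 to 30 Myl7 counts in an EC library and 5 to 57 in a fibroblast library, against 80 to 698 in a cardiomyocyte library. The 46.3% is from 25 Myl7 and 29 Myl2 counts. The highest cardiomyocyte share was in Control-AMI 4, the library with the highest level of the atrial peptide Nppa (757 CPM, against 132 to 498 CPM in the other 12 libraries) and of sarcolipin, Sln (94.7 CPM). Bmp10, also an atrial marker, did not follow them: it was at 0 CPM in Control-AMI 4 and highest in Control-AMI 3, at 13.1 CPM. The part of atrial RNA in the Myl7 values was not tested.

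The summed share of the 31 genes was taken in each library, as a percent of the counts of nuclear-encoded genes. In Sham cardiomyocytes it was 14.7%, 14.3%, 14.6% and 13.2% (mean 14.2% ± 0.661, SD, n = 4). In Control-AMI cardiomyocytes it was 15.4%, 12.7%, 17.5%, 10.3% and 13.1% (13.8% ± 2.74, n = 5). In EMPA–Pre-AMI cardiomyocytes it was 15.8%, 10.4%, 16.4% and 15.2% (14.5% ± 2.77, n = 4). The means of the groups differed by less than the spread within Control-AMI and EMPA–Pre-AMI, and the Sham libraries lay closest together.

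In ECs the same share was 0.188%, 0.124%, 0.354% and 0.171% in Sham (0.209% ± 0.1004, n = 4) and 0.171%, 0.131%, 0.256% and 0.317% in Control-AMI (0.219% ± 0.0834, n = 4). The 5 EMPA–Pre-AMI libraries had 0.121%, 0.132%, 0.118%, 0.147% and 0.193% (0.142% ± 0.0305). The EMPA–Pre-AMI shares were low and close together and overlapped with both other groups, each of which had a library at or under 0.131%. Within list 2, which held libraries of each group, the shares were 0.124%, 0.354% and 0.171% in Sham, 0.131% and 0.256% in Control-AMI, and 0.121%, 0.132% and 0.118% in EMPA–Pre-AMI. In fibroblasts the share ranged from 0.109% to 0.256% in Sham, from 0.141% to 0.226% in Control-AMI and from 0.0972% to 0.228% in EMPA–Pre-AMI, so the 3 groups overlapped throughout. In ECs and fibroblasts this share is not a measure of cardiomyocyte RNA alone. It includes genes that stood above their cardiomyocyte ratio to Myh6. Mean Tpm1 was 520 CPM in Sham ECs and 457 CPM in Sham fibroblasts, beside 185 and 112 CPM for Myh6. The median ratio of Tpm1 to Myh6 was 1.99 times that of cardiomyocytes in ECs and 2.88 times in fibroblasts.

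**Figure D2:**
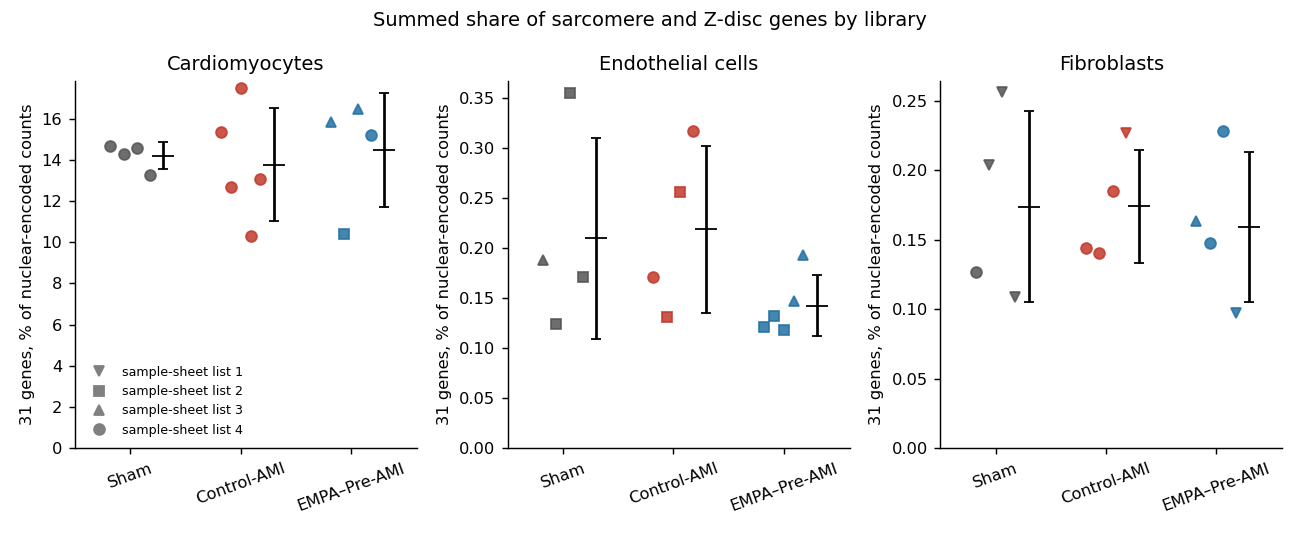
Summed counts of the 31 genes as a percent of nuclear-encoded counts (vertical axes, starting at 0 and scaled for each population) in each library, by group; marker shapes give the sample-sheet list, and bars the mean ± SD. Cardiomyocytes hold 10.3% to 17.5%, ECs 0.118% to 0.354% and fibroblasts 0.0972% to 0.256%, and the groups overlap in each population.

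Within cardiomyocytes, the comparison of Control-AMI with Sham asked what 2 h of reperfusion after ischemia did to sarcomere transcripts. None of the 31 genes passed an FDR of 0.05 or 0.1 (edgeR), where 0.0655% of the 9167 genes tested did at either threshold. At an unadjusted p below 0.05 there were 2 of 31 (2.72% of all genes), and DESeq2 called 0 at either threshold. The median log2 fold change was -0.09 against 0.01 over all genes, with 12 of the 31 genes above 0 (51.5% of all genes). Thick filament genes had 4 fold changes above and 3 under 0, thin filament genes 2 and 5, Z-disc structure genes 3 and 6, titin and M-band genes 1 and 2, and the stress-responsive partners 2 and 3.

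The 2 genes under an unadjusted p of 0.05 lay on opposite sides. Ttn, which encodes titin (chr2:76534136-76812891, minus strand), was at 2146, 2546, 2093 and 1911 CPM in Sham and at 4320, 2834, 3173, 2521 and 3054 CPM in Control-AMI. One Control-AMI library, the fourth, lay within the Sham range, and the log2 fold change was 0.55 ± 0.21 (SE, edgeR, FDR = 1). Fhl2, a LIM-domain protein that binds titin and works as a transcriptional co-factor (chr1:43162199-43236290, minus strand), was at 384, 339, 420 and 356 CPM in Sham and at 321, 314, 240, 199 and 256 CPM in Control-AMI. Every Control-AMI library was under every Sham library, and the log2 fold change was -0.49 ± 0.23 (edgeR, FDR = 1). It was the 1 gene of the 31 whose groups did not overlap, where 2.47% of all genes had groups that did not overlap.

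The major contractile genes showed no difference beyond the spread. Myh6 was at 5967, 5440, 5438 and 5486 CPM in Sham and at 7371, 5028, 8803, 4404 and 4806 CPM in Control-AMI. The Sham libraries fell inside the Control-AMI range, and the log2 fold change was 0.12 ± 0.28 (SE). Myh7, the beta myosin heavy chain that is raised in failing mouse hearts, was at 138, 149, 130 and 153 CPM in Sham and at 198, 116, 190, 67.3 and 171 CPM in Control-AMI. Its log2 fold change was 0.06 ± 0.28, and it made up 2.26% to 2.71% of the sum of Myh6 and Myh7 in Sham and 1.51% to 3.44% in Control-AMI. Myl2, the ventricular regulatory light chain, stood at 5388, 5324, 5370 and 4442 CPM in Sham and at 5829, 4287, 6833, 3189 and 4317 CPM in Control-AMI, again with Sham inside the range of Control-AMI.

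Tnni3, the inhibitory troponin subunit, was at 3008, 2663, 3399 and 2753 CPM in Sham and at 2774, 2281, 3020, 2663 and 2839 CPM in Control-AMI. Ankrd1, a titin-binding ankyrin repeat protein that stretch is known to induce, was at 866, 1266, 1197 and 1058 CPM in Sham and at 1481, 1465, 1295, 715 and 1157 CPM in Control-AMI. Of the 5 Control-AMI libraries, 3 were above every Sham library and 1 was under every Sham library, and the log2 fold change was 0.16 ± 0.25. Xirp1, an actin-binding repeat protein of the intercalated disc and Z-disc, was low at 15.5, 12.9, 14.7 and 13.7 CPM in Sham and 19.8, 10.2, 16.4, 21.3 and 16.1 CPM in Control-AMI, with a log2 fold change of 0.24 ± 0.24. At this number of libraries, simulated 2-fold changes were called at an FDR of 0.05 in 39.3% of cases and 4-fold changes in 96.5%, so changes under 2-fold could often go undetected.

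The comparison of EMPA–Pre-AMI with Control-AMI cardiomyocytes asked whether EMPA given beforehand altered these transcripts. At an FDR of 0.05, 0 of the 31 genes passed (edgeR, where 0.0218% of all genes did), and DESeq2 called 5 (8.86% of all genes). At an FDR of 0.1, which the study used for cardiomyocytes, 3 genes were higher, Fhl2, Smpx and Myoz2, none was lower, and DESeq2 called 6 (15.5% of all genes). The share of all genes at that threshold was 10.7%, and 5.33% were higher, so 3 of 31 is near the background. At an unadjusted p below 0.05 there were 6 of 31, the 3 named and Actc1, Csrp3 and Myh7, against 25% of all genes. The median log2 fold change was 0.17 over the 31 genes, 23 above and 8 under 0, and -0.01 over all genes, of which 49% were above 0.

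Fhl2 was at 321, 314, 240, 199 and 256 CPM in Control-AMI and at 409, 719, 744 and 329 CPM in EMPA–Pre-AMI. All 4 EMPA–Pre-AMI libraries were above all 5 Control-AMI libraries, with libraries 2 and 3 far above the rest and libraries 1 and 4 within or near the Sham range of 339 to 420 CPM. The log2 fold change was 1.05 ± 0.23 (SE, edgeR, FDR = 0.0571), and DESeq2 gave an adjusted p of 0.00381.

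Smpx, a small muscle protein of the costamere and Z-disc encoded on the X chromosome (chrX:156481900-156536688, plus strand), was at 131, 115, 37.8, 71.3 and 91.4 CPM in Control-AMI. It was at 133, 239, 269 and 132 CPM in EMPA–Pre-AMI and at 112, 117, 127 and 103 CPM in Sham. EMPA–Pre-AMI libraries 1 and 4 lay just above the highest Control-AMI library, and libraries 2 and 3 lay well above it (log2 fold change 1.11 ± 0.29, edgeR, FDR = 0.0571).

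Myoz2, which encodes calsarcin-1, the Z-disc protein that binds and restrains calcineurin (chr3:122797610-122828664, minus strand), was at 195, 189, 49.3, 184 and 160 CPM in Control-AMI. It was at 219, 605, 489 and 204 CPM in EMPA–Pre-AMI and at 177, 174, 235 and 201 CPM in Sham. EMPA–Pre-AMI libraries 1 and 4 were inside the Sham range, libraries 2 and 3 were more than 2 times the highest Sham value, and Control-AMI library 3 stood alone at the low end. The log2 fold change was 1.28 ± 0.36 (edgeR, FDR = 0.0609).

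**Figure D3:**
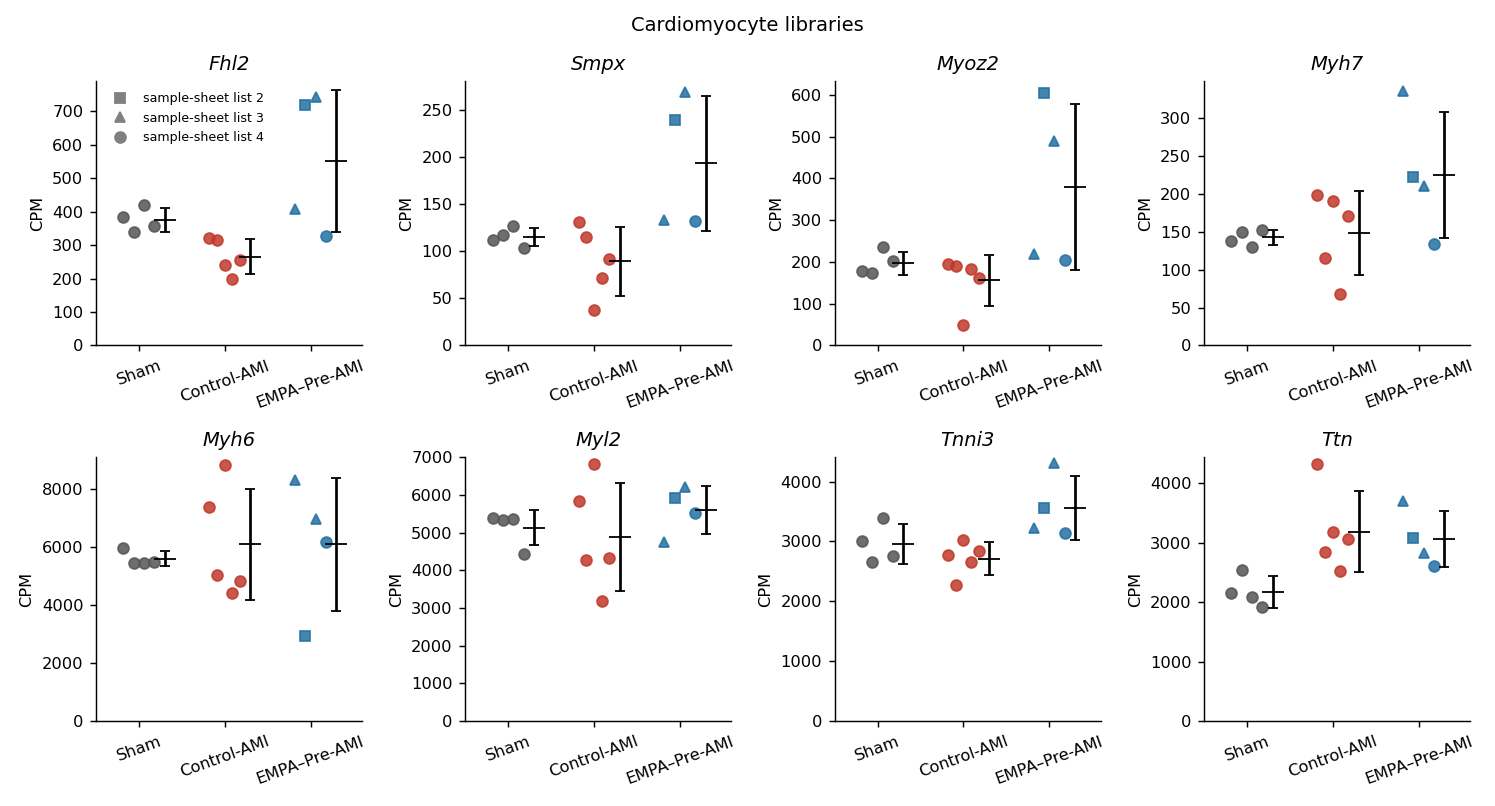
Level of 8 of the genes in the 13 cardiomyocyte libraries (CPM, vertical axes starting at 0) by group, with marker shapes for the sample-sheet list and bars for the mean ± SD (n = 4, 5 and 4). For Fhl2, Smpx and Myoz2 the EMPA–Pre-AMI libraries on list 2 and 1 of those on list 3 stand far above the others (Fhl2 719 and 744 CPM), while the library on list 4 lies near Sham (Fhl2 329 CPM).

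Over the 13 fits that left out 1 library, the log2 fold change ranged from 0.87 to 1.23 for Fhl2 (FDR 0.00227 to 0.195), from 0.91 to 1.29 for Smpx (FDR 0.00936 to 0.195) and from 0.98 to 1.49 for Myoz2 (FDR 0.0114 to 0.2). Without Control-AMI 4, without Control-AMI 5 or without EMPA–Pre-AMI 3, 0 of the 31 genes passed an FDR of 0.1, and so did 1, 0 and 2 of all genes. Without EMPA–Pre-AMI 4, 6 of the 31 passed 0.1 and 3 passed 0.05, beside 2342 and 1498 of all genes, and without EMPA–Pre-AMI 1, 3 passed 0.05, beside 326 of all genes. Without both EMPA–Pre-AMI libraries 2 and 3 the log2 fold changes were 0.49 for Fhl2, 0.59 for Smpx and 0.47 for Myoz2, with adjusted p of 0.58, 0.617 and 0.746 (edgeR). Among the libraries of list 4 they were 0.32, 0.57 and 0.41, and with the list as a term 0.30, 0.56 and 0.39. Both of these fits compare a single EMPA–Pre-AMI library, the fourth, with Control-AMI, so no test of the 3 genes is drawn from them.

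The length of the transcripts was related to the fold changes, and most of all in EMPA–Pre-AMI libraries 2 and 3. Over 9156 genes with a known length, the log2 fold change had a Spearman rho of -0.32 with the spliced length of the canonical transcript in this comparison, -0.30 against Sham and 0.12 in the comparison of Control-AMI with Sham. Over the 31 genes these were -0.23, -0.32 and 0.17. Set against the mean log level of the 13 libraries, EMPA–Pre-AMI libraries 2 and 3 had rho of -0.26 and -0.29 with length, and the other 11 lay between -0.03 and 0.19. Smpx has a canonical transcript of 1087 bases, Fhl2 of 1818 and Myoz2 of 3426, beside 107543 for Ttn. The summed level of 10 fibroblast markers was 1081 to 1563 CPM in Sham, 871 to 2066 CPM in Control-AMI and 404, 1234, 212 and 1189 CPM in EMPA–Pre-AMI libraries 1 to 4. Among the EMPA–Pre-AMI libraries this sum was highest in library 2 and lowest in library 3. The summed cardiomyocyte genes outside the sarcomere stood at 14597 to 16275 CPM in Sham, 11254 to 18206 CPM in Control-AMI and 16555 to 23137 CPM in EMPA–Pre-AMI. The 10 endothelial markers summed to 665 to 1282 CPM in Control-AMI and 566 to 1419 CPM in EMPA–Pre-AMI. Between these groups, 4 of the 12 cardiomyocyte genes outside the sarcomere were higher at an FDR of 0.1 (edgeR). At that threshold 1 of 9 fibroblast and 3 of 10 endothelial markers were lower, where 10.7% of all genes passed. The median log2 fold changes of these lists were 0.43, -1.06 and -0.42, with 9, 0 and 1 genes above 0. The part of length, of fibroblast and endothelial RNA and of the lists in the 3 calls was not tested.

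The other members by role were as follows in this comparison. In the thick filament group, 5 log2 fold changes were above and 2 under 0. Myh7 was at 336, 223, 210 and 134 CPM in EMPA–Pre-AMI, with 3 libraries above the Control-AMI maximum of 198 CPM and library 4 inside its range (log2 fold change 0.60 ± 0.28, FDR = 0.183). Myh6 was at 8290, 2926, 6958 and 6172 CPM, with library 2 under every other cardiomyocyte library, and its log2 fold change was 0.00 ± 0.27. The share of Myh7 in the sum of both heavy chains was 3.89%, 7.07%, 2.93% and 2.12%, and library 2 was the highest of all 13.

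Myl2 was at 4759, 5922, 6201 and 5531 CPM in EMPA–Pre-AMI, inside the Control-AMI range. In the thin filament group 5 of 7 were above 0. Tnni3 was at 3224, 3552, 4313 and 3133 CPM, each above the Control-AMI maximum of 3020 CPM, but the difference of 0.39 ± 0.19 did not pass (FDR = 0.207). Actc1, the cardiac alpha actin, had a log2 fold change of 0.64 ± 0.24 with overlapping groups (FDR = 0.107).

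Titin and the M-band genes Myom1 and Myom2, which crosslink thick filaments, had log2 fold changes between -0.06 and 0.17. Ttn was at 3700, 3080, 2829 and 2610 CPM, inside the Control-AMI range. Of 9 Z-disc structure genes 7 were above 0, and Csrp3, the muscle LIM protein, had 0.47 ± 0.19 (FDR = 0.13). Among the stress-responsive partners, Ankrd1 was at 1383, 706, 1469 and 1738 CPM and Xirp1 at 19.6, 9.68, 19.5 and 16.9 CPM, both overlapping with Control-AMI (log2 fold changes 0.12 ± 0.25 and -0.01 ± 0.24). Groups did not overlap for 4 of the 31 genes, Fhl2, Smpx, Myoz2 and Tnni3, all higher, where 5.97% of all genes had groups that did not overlap.

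**Figure D4:**
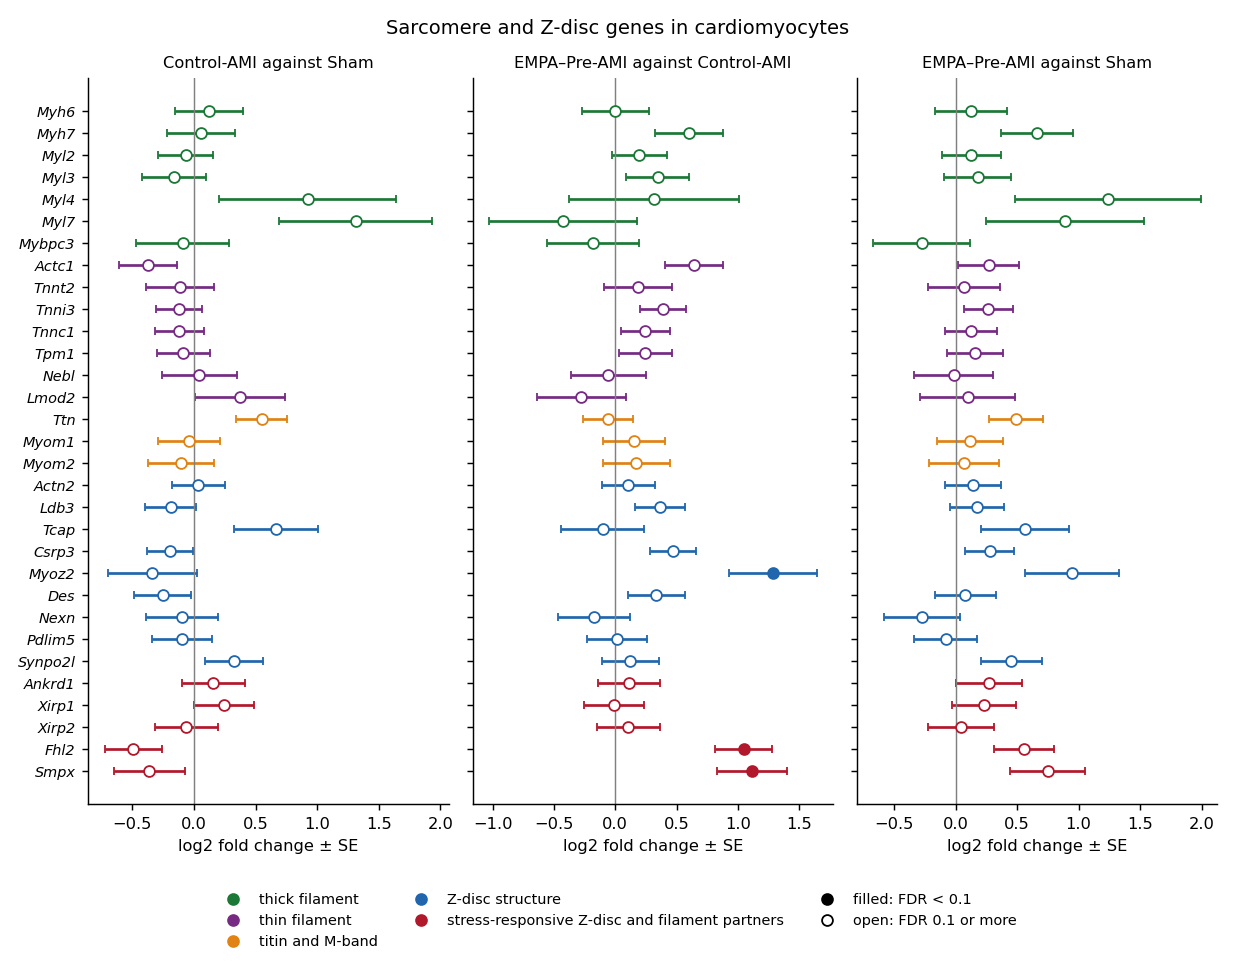
Log2 fold change ± SE (horizontal axes) of the 31 genes in the 3 comparisons between cardiomyocyte groups, coloured by role, with filled points for an FDR under 0.1. The filled points are Fhl2, Smpx and Myoz2 in EMPA–Pre-AMI against Control-AMI, with log2 fold changes of 1.05, 1.11 and 1.28.

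Genes of the same apparatus that are not among the 31 were counted too. Of 42 other sarcomere and Z-disc genes, 37 were tested, 4 were higher and 1 was lower in EMPA–Pre-AMI than in Control-AMI cardiomyocytes at an FDR of 0.1, and 0 passed 0.05 (edgeR; 10 at an unadjusted p below 0.05, DESeq2 6 at 0.05). Of all genes, 10.7% passed 0.1 and 0.0218% passed 0.05 in edgeR, and 25% had an unadjusted p below 0.05. DESeq2 called 8.86% of all genes at 0.05. The edgeR counts are near the background. The higher genes were Cryab, a small heat shock protein that protects titin and desmin (log2 fold change 0.97 ± 0.23, FDR = 0.0571), Acta1, the skeletal alpha actin (0.97 ± 0.26, FDR = 0.0579), the myosin chaperone Unc45b (0.60 ± 0.19, FDR = 0.0826) and the pointed-end cap Tmod1 (0.54 ± 0.18, FDR = 0.0868). Tpm3, a tropomyosin of slow and non-muscle filaments, was lower (-0.70 ± 0.19, FDR = 0.0574). Of 13 muscle gene regulators tested out of 15 listed, 1 passed 0.1, beside the same 10.7% of all genes. It was Yap1, a co-activator of the Hippo pathway, which was higher (1.00 ± 0.29, FDR = 0.0624). Over the 13 fits without 1 library, Cryab kept its call at 0.1 in 10, Acta1, Tpm3 and Yap1 in 9 each, and Unc45b and Tmod1 in 3 each. With Sham as the reference in either AMI group, 0 of the 37 and 0 of the 13 passed an FDR of 0.1 (edgeR). Of all genes, 0.0655% did for Control-AMI and 0.818% for EMPA–Pre-AMI. At an unadjusted p below 0.05 there were 2 and 0 for Control-AMI (2.72% of all genes) and 6 and 2 for EMPA–Pre-AMI (18.2%). At 0.1 DESeq2 called 0 and 0, and 3 and 0.

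EMPA–Pre-AMI and Sham cardiomyocytes were compared as well, with the same EMPA–Pre-AMI libraries. None of the 31 genes passed an FDR of 0.05 or 0.1 (edgeR, where 0.338% and 0.818% of all genes did), 5 fell below an unadjusted p of 0.05 (18.2% of all genes), and DESeq2 called 0. The median log2 fold change was 0.17, with 27 above and 4 under 0 (49.8% of all genes above 0). Ttn, at 0.49 ± 0.22 (FDR = 0.241), and Smpx, at 0.75 ± 0.30 (FDR = 0.216), were the 2 genes of 31 with every EMPA–Pre-AMI library above every Sham library, where 7.88% of all genes did not overlap. Fhl2 and Myoz2 overlapped with Sham, at 0.56 ± 0.25 and 0.95 ± 0.38. Without EMPA–Pre-AMI 4, which shares its list with Sham, 1 of the 31 passed an FDR of 0.05 and 4 passed 0.1, beside 943 and 1637 of all genes.

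In ECs, 23 of the 31 genes passed the filter on low counts. The 8 others, Myl4, Myom2, Actn2, Ldb3, Myoz2, Synpo2l, Xirp1 and Smpx, were too low to test. Xirp1 had 0 to 6 counts and Synpo2l 0 to 8 counts over the 13 EC libraries, and a count of 3 corresponds to 1.37 to 2.22 CPM there. Against Sham, 0 of the 23 differed in Control-AMI (edgeR; 0 at an unadjusted p below 0.05, 0 by DESeq2), where 6.56% of the 10438 genes tested did, and 19.8% at the unadjusted threshold. Groups did not overlap for 0 of the 23, against 11.3% of all genes. Sarcomere transcripts in ECs therefore did not differ detectably between these 2 groups, while the summed level of 10 fibroblast markers was 651 to 1685 CPM in Sham and 2309 to 8536 CPM in Control-AMI.

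Between EMPA–Pre-AMI and Control-AMI ECs, 21 of the 23 genes tested had a log2 fold change under 0 and 2, Nebl and Pdlim5, above 0. None passed an FDR of 0.05 (edgeR, where 2.63% of all genes did), 5 fell below an unadjusted p of 0.05 (12.2% of all genes), and DESeq2 called 0. The median was -0.92 over the 23 and 0.02 over all genes, of which 53% were above 0. It lay between -1.19 and -0.55 when each library was left out in turn, the latter without Control-AMI 4, a library with one of the highest sarcomere shares. Genes read from the same libraries are not independent replicates, so the number on one side of 0 is a description.

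Myh6 was at 158, 72.4, 252 and 330 CPM in Control-AMI ECs and at 66.7, 66.5, 57.1, 117 and 169 CPM in EMPA–Pre-AMI ECs, beside 179, 101, 352 and 109 CPM in Sham. Control-AMI libraries 3 and 4 and Sham library 3 were high, and the groups overlapped (log2 fold change against Control-AMI -1.09 ± 0.53, FDR = 0.447). Ttn was at 172, 120, 257 and 338 CPM in Control-AMI and at 83.4, 131, 92.7, 91.4 and 130 CPM in EMPA–Pre-AMI, and Control-AMI library 2 fell within the EMPA–Pre-AMI range (-1.07 ± 0.41, FDR = 0.294). Ankrd1 was at 21.8, 15.8, 82.2 and 65.4 CPM in Control-AMI and at 10.2, 23.2, 19.8, 16.1 and 23.3 CPM in EMPA–Pre-AMI (-1.30 ± 0.49, FDR = 0.268).

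Myl2 and Tnni3 were also higher in Control-AMI libraries 3 and 4 than in the other Control-AMI libraries. Myl2 was at 49.9, 46.7, 126 and 129 CPM in Control-AMI and 36.1, 30.3, 33.4, 43.9 and 66.4 CPM in EMPA–Pre-AMI, and Tnni3 was at 39.004, 27.4, 67.5 and 125 CPM and at 24.2, 20.5, 24.3, 36.5 and 60.4 CPM. For both genes EMPA–Pre-AMI library 5 was the highest of its group and lay above Control-AMI libraries 1 and 2. The summed level of cardiomyocyte genes outside the sarcomere was 263 to 640 CPM in Control-AMI and 212 to 320 CPM in EMPA–Pre-AMI ECs, and 0 of its 11 tested genes were on the higher side. Of those 11 genes 1 was lower at an FDR of 0.05. Between the same groups the 10 fibroblast markers summed to 2309 to 8536 and 574 to 1153 CPM. The part of cardiomyocyte RNA and of fibroblast RNA in the sarcomere values was not tested.

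Pdlim5 was nearly level across the EC libraries. It was at 141, 118, 148 and 137 CPM in Sham, at 133, 147, 142 and 123 CPM in Control-AMI and at 164, 148, 164, 124 and 157 CPM in EMPA–Pre-AMI. The groups overlapped. Among the Sham libraries Pdlim5 and Myh6 were both highest in library 3 and lowest in library 2, whereas Control-AMI library 4, with the most Myh6 of its group, had the least Pdlim5, and the log2 fold change between EMPA–Pre-AMI and Control-AMI was 0.15 ± 0.14. Nebl, at 24.0, 55.4, 45.4 and 17.4 CPM in Control-AMI and 71.1, 37.3, 44.1, 30.9 and 29.9 CPM in EMPA–Pre-AMI, was lowest in the Control-AMI library with the highest Myh6, the fourth, whereas in Sham (26.0, 31.9, 45.3 and 24.3 CPM) it was highest in the library with the highest Myh6, the third.

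Fhl2 in ECs was at 6.49, 20.9, 29.2 and 15.3 CPM in Sham, at 16.8, 12.8, 10.7 and 15.6 CPM in Control-AMI and at 3.77, 8.11, 5.09, 9.89 and 10.2 CPM in EMPA–Pre-AMI. Each EMPA–Pre-AMI library was under each Control-AMI library, the 1 such case among the 23 genes tested, where 4.21% of all genes did not overlap (log2 fold change -0.92 ± 0.39, FDR = 0.308). Against Sham, where 0 of the 23 genes passed an FDR of 0.05 (edgeR, 3 at an unadjusted p below 0.05; 2.71% and 14.1% of all genes), Fhl2 had the smallest FDR, 0.0778, with a log2 fold change of -1.29 ± 0.39. Groups did not overlap for 0 of the 23, against 6.56% of all genes. For Fhl2, Sham library 1 lay within the EMPA–Pre-AMI range, and DESeq2 gave an adjusted p of 0.043, the 1 call among the 23 by that tool (4.04% of all genes). Without Sham 3, the library with the highest summed share of the listed genes, the fold change was -0.96 with an FDR of 0.355. Without Sham 1 it was -1.56 with an FDR of 0.0158.

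Of the other sarcomere and Z-disc genes, 19 of 42 were tested in ECs. At an FDR of 0.05, 2.63% of all genes were called between the AMI groups. The shares were 6.56% in Control-AMI against Sham and 2.71% in EMPA–Pre-AMI against Sham. Between EMPA–Pre-AMI and Control-AMI, Cryab was lower (-1.04 ± 0.25, FDR = 0.0207), as was Synpo2, a synaptopodin relative that bundles actin (-1.95 ± 0.49, FDR = 0.0323). Against Sham, Unc45b was lower in Control-AMI (-0.70 ± 0.17, FDR = 0.0117). In EMPA–Pre-AMI against Sham the co-chaperone Bag3 was higher (1.05 ± 0.23, FDR = 0.0163) and Cryab was lower (-0.93 ± 0.25, FDR = 0.0428). Of 12 regulators tested, the T-box factor Tbx20 was lower in EMPA–Pre-AMI than in Control-AMI (-2.16 ± 0.44, FDR = 0.0139) and Mrtfb, a co-activator of serum response factor, was higher in EMPA–Pre-AMI when Sham was the reference (0.88 ± 0.18, FDR = 0.00675). Mean Tbx20 was 9.24 CPM in EMPA–Pre-AMI and 41.4 CPM in Control-AMI ECs, and in fibroblasts it was 123 CPM in EMPA–Pre-AMI and 244 CPM in Sham. All 9 fibroblast markers tested in the same EC comparison were lower at an FDR of 0.05, with a median log2 fold change of -2.80, and their part in the Tbx20 value was not tested.

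Several of these EC calls were lost in other fits. Over the 13 fits without 1 library, the call at 0.05 was kept in 9 for Cryab (FDR 0.0079 to 0.0709), 8 for Synpo2 (0.0247 to 0.362) and 12 for Tbx20 (0.00331 to 0.0504) between the AMI groups, and in 12 for Unc45b (0.00525 to 0.0561) in Control-AMI against Sham. In EMPA–Pre-AMI against Sham it was kept in 10 for Bag3 (0.00383 to 0.0745), 5 for Cryab (0.0026 to 0.184) and 13 for Mrtfb (0.00411 to 0.0461). With the list as a term, the values between the AMI groups were -0.91 for Tbx20 (FDR = 0.807), -0.78 for Cryab (FDR = 0.722) and -1.997 for Synpo2 (FDR = 0.406). With the same term Unc45b had an FDR of 0.188 in Control-AMI against Sham and Cryab 0.0846 in EMPA–Pre-AMI against Sham. Among ECs, list 4 held only Control-AMI libraries 1 and 4. With the list as a term, Control-AMI is therefore represented by libraries 2 and 3 alone. These fits cannot tell an effect of the list from the loss of those libraries.

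In fibroblasts, 24 of the 31 genes passed the filter, and Myl4, Actn2, Ldb3, Csrp3, Synpo2l, Xirp1 and Smpx did not. In Control-AMI against Sham 0 of the 24 passed an FDR of 0.05 (edgeR, where 4.16% of the 10691 genes tested did), 4 fell below an unadjusted p of 0.05 (19.2% of all genes), and DESeq2 called 2, Fhl2 and Pdlim5 (7.23% of all genes). In EMPA–Pre-AMI against Control-AMI 0 of the 24 passed (0% of all genes), 1 fell below an unadjusted p of 0.05 (1.59% of all genes), and DESeq2 called 0. With Sham as the reference, 0 of the 24 passed in EMPA–Pre-AMI (5.11% of all genes), 2 fell below an unadjusted p of 0.05 (20.8% of all genes), and DESeq2 called 0. Groups overlapped for each of the 24 there, where 11.8% of all genes did not overlap. Simulated 2-fold changes were called in 26.9% of cases in fibroblasts and in 41.3% in ECs.

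Fhl2 in fibroblasts was at 8.26, 18.9, 16.05 and 18.4 CPM in Sham, at 34.5, 20.3, 34.9 and 42.4 CPM in Control-AMI and at 20.8, 26.3, 32.7 and 17.5 CPM in EMPA–Pre-AMI. Each Control-AMI library was above each Sham library, where 12.3% of all genes did not overlap, and Sham library 1 was the lowest of the 12. The log2 fold change was 1.10 ± 0.30 (edgeR, FDR = 0.0516; DESeq2, adjusted p = 0.0149). On list 4 the Sham library had 8.26 CPM and the 3 Control-AMI libraries 20.3 to 34.9 CPM, and on list 1 the 3 Sham libraries had 16.05 to 18.9 CPM and the Control-AMI library 42.4 CPM. With the list as a term the log2 fold change was 1.26 with an FDR of 0.0196, and with the replicate number as a block it was 1.12 with an FDR of 0.0419. Over the fits that left out 1 library, it ranged from 0.89 to 1.29 with FDR from 0.0349 to 0.118. The summed level of cardiomyocyte genes outside the sarcomere was 253 to 511 CPM in Sham and 304 to 514 CPM in Control-AMI fibroblasts. The 10 endothelial markers summed to 811, 741, 278 and 200 CPM in Sham and to 847, 972, 958 and 526.4 CPM in Control-AMI, with 8 of 10 above 0, a median log2 fold change of 0.82 and 0 at an FDR of 0.05 (edgeR, 1 at an unadjusted p below 0.05, DESeq2 0). Of 9 mural cell markers tested, 1 was higher at an FDR of 0.05. The 10 mural markers listed summed to 1049 to 2964 CPM in Sham and 927 to 6135 CPM in Control-AMI. The highest sum was in Control-AMI library 4, which also had the highest Fhl2. The part of endothelial and mural RNA in the Fhl2 and Pdlim5 values was not tested.

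Pdlim5 was at 102, 97.7, 65.9 and 143 CPM in Sham fibroblasts, at 163, 156, 189 and 139 CPM in Control-AMI and at 141, 158, 175 and 145 CPM in EMPA–Pre-AMI. Sham library 4 lay above the lowest Control-AMI library, and the log2 fold change was 0.66 ± 0.20 (edgeR, FDR = 0.0794; DESeq2, adjusted p = 0.0324). In EMPA–Pre-AMI against Sham it was 0.60 ± 0.20 (FDR = 0.102). Sham library 4 also had the least Myh6 of its group, 27.3 CPM against 90.1 to 198 CPM.

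Myl7 ran the other way in fibroblasts. It was at 5.63, 25.1, 3.90 and 12.6 CPM in Sham, at 1.92, 7.13, 2.42 and 3.29 CPM in Control-AMI and at 8.82, 11.6, 11.1 and 12.2 CPM in EMPA–Pre-AMI. The log2 fold change was -1.64 ± 0.54 in Control-AMI against Sham (edgeR, FDR = 0.0998) with overlapping groups, and 1.53 ± 0.55 in EMPA–Pre-AMI against Control-AMI (FDR = 1), where every EMPA–Pre-AMI library was above every Control-AMI library, as in 1.78% of all genes. Both contrasts use the same Control-AMI libraries. Over the 12 fits without 1 library the first ranged from -2.17 to -0.99 with FDR from 0.0521 to 0.361, the smallest change being without Sham 2 (FDR = 0.361). That library had the highest Myl7, the highest Nppa (29.03 CPM, against 0 to 7.88 CPM in the other Sham and 0 to 3.29 CPM in the Control-AMI libraries) and the highest sum of leukocyte markers (687 CPM, against 9.22 to 45.3 CPM in the other 11). The atrial markers Sln and Bmp10 were at 5.28 and 0 CPM in it. Of 3 atrial markers 1 was tested, with a log2 fold change of -2.44 in Control-AMI against Sham (FDR = 0.293) and 2.16 between the AMI groups (FDR = 1), and the part of atrial RNA in the Myl7 values was not tested. With the replicate number as a block the FDR against Sham was 0.0441. These levels are a few CPM, and Myh6 in the same groups was at 27.3 to 198, 84.8 to 180 and 18.5 to 168 CPM, with a log2 fold change of 0.05 ± 0.66 in Control-AMI against Sham.

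**Figure D5:**
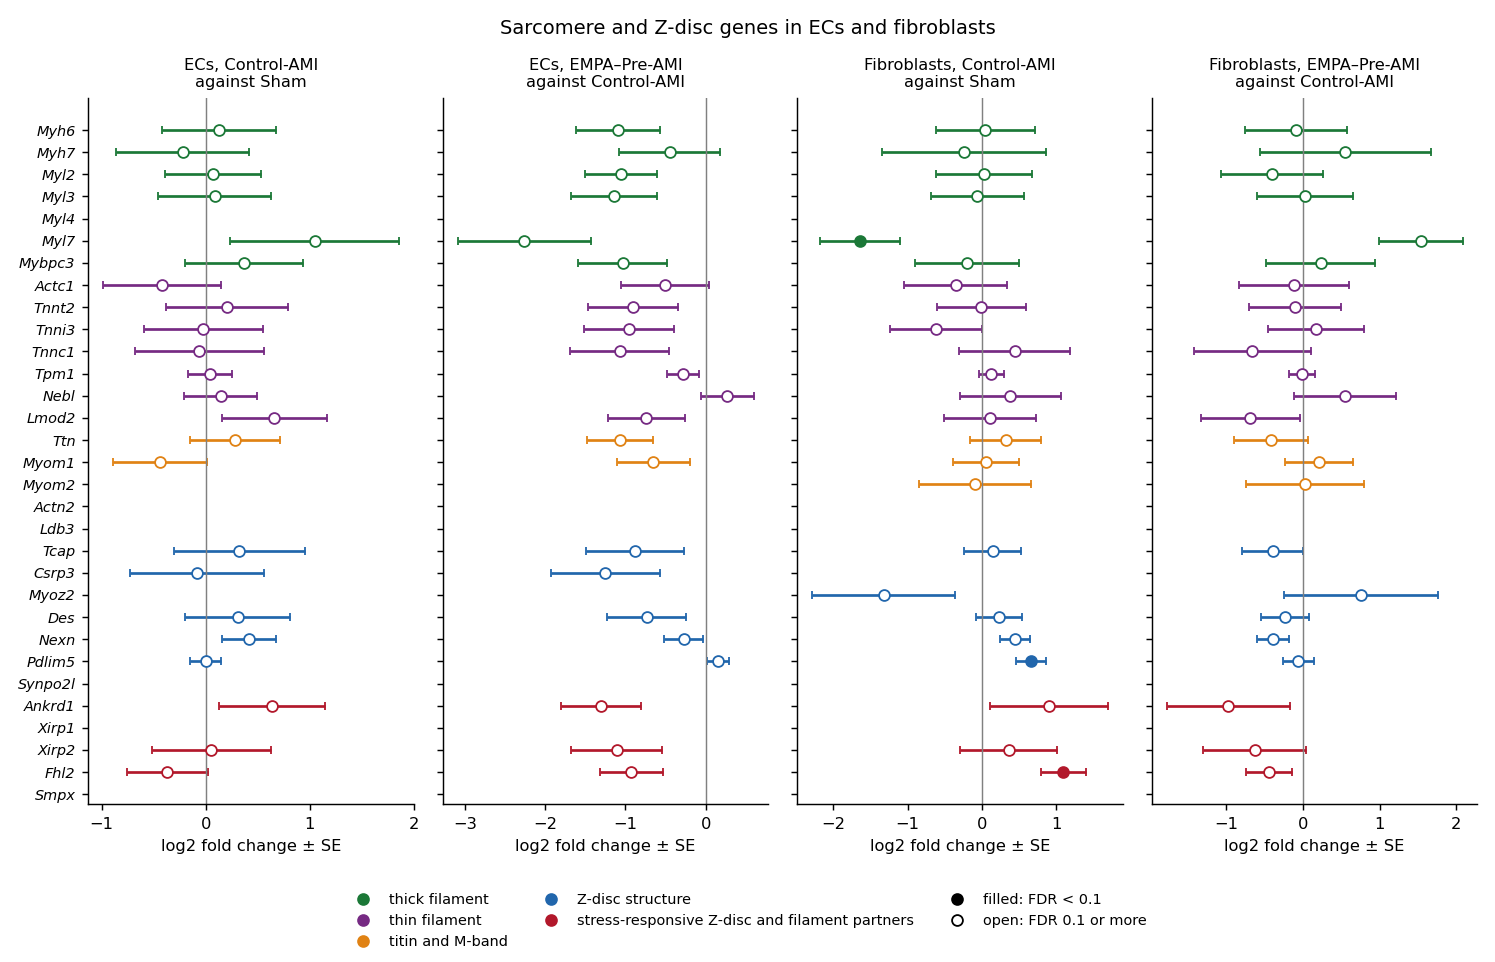
Log2 fold change ± SE (horizontal axes) of the listed genes that passed the filter in ECs (23 genes) and fibroblasts (24 genes), coloured by role, with filled points for an FDR under 0.1. In ECs the EMPA–Pre-AMI against Control-AMI values lie under 0 for 21 genes with a median of -0.92, and in fibroblasts the filled points are Fhl2 (1.10), Pdlim5 (0.66) and Myl7 (-1.64) in Control-AMI against Sham.

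Of the other sarcomere and Z-disc genes, 22 of 42 were tested in fibroblasts. At an FDR of 0.05, 4.16% of all genes were called in Control-AMI against Sham. The shares were 5.11% in EMPA–Pre-AMI against Sham and 0% between the AMI groups. Bag3 was higher in Control-AMI than in Sham (0.84 ± 0.22, FDR = 0.0441). In EMPA–Pre-AMI against Sham, Tpm3 was higher (0.72 ± 0.19, FDR = 0.0392) and Pdlim3, a relative of Pdlim5 that binds alpha-actinin, was lower (-1.04 ± 0.29, FDR = 0.048). Over the 12 fits without 1 library these calls were kept in 5 for Bag3 (FDR 0.0147 to 0.132), 4 for Tpm3 (0.0195 to 0.123) and 1 for Pdlim3 (0.0406 to 0.116), and with the list as a term the FDR was 0.0911 for Bag3 and 0.0644 for Tpm3. None of the 22 passed in EMPA–Pre-AMI against Control-AMI (edgeR, 1 at an unadjusted p below 0.05, DESeq2 0), and none of 11 regulators passed an FDR of 0.05 in any comparison by edgeR. At an unadjusted p below 0.05 there was 1 regulator in Control-AMI against Sham, 0 between the AMI groups and 4 when EMPA–Pre-AMI was set against Sham. The shares of all genes in that order were 19.2%, 1.59% and 20.8%. DESeq2 called 0, 0 and 3 regulators.

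Whether the effects differed between populations was tested in 1 fit of all 38 libraries. Cardiomyocytes and sorted cells were taken from digested hearts of the same series of mice, so libraries of different populations can share hearts; the labels do not tie them, and the fit treated them as independent. For EMPA–Pre-AMI against Control-AMI, 1 of the 31 genes differed between ECs and cardiomyocytes at an FDR of 0.05, where 0.993% of the 12085 genes did (16.5% at an unadjusted p below 0.05). It was Fhl2, with a difference of -1.94 ± 0.44 (log2, SE; edgeR, FDR = 0.0251), and DESeq2 called 2, Fhl2 and the Z-disc crosslinker Actn2 (adjusted p = 0.00233 and 0.0347), where it called 4.08% of all genes. The difference for Fhl2 ranged from -2.09 to -1.71 when each library was left out, with FDR from 0.00644 to 0.0917, and it no longer passed without EC Control-AMI 1, EC Control-AMI 4 or EC EMPA–Pre-AMI 1. With the list as a term shared by all populations it was -1.91 with an FDR of 0.025. A shared term cannot take up a difference between lists that is particular to cardiomyocytes, so nothing about the lists is concluded from this fit. The cardiomyocyte side of this difference rests on the libraries described above. On the EC side the Fhl2 fold change within ECs was -0.92, which is the median of the 23 genes tested there. It rests on 7 to 37 counts in each library of the 2 groups. The part of cardiomyocyte RNA in the EC value was not tested.

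In the other 3 differences between populations, 0 of the 31 genes passed an FDR of 0.05 (edgeR). For Control-AMI against Sham these were ECs against cardiomyocytes (1.51% of all genes passed; 0 of the 31 at an unadjusted p below 0.05, against 9.09%, and 0 by DESeq2) and fibroblasts against cardiomyocytes (0.331%; 4, against 8.47%, and 1 by DESeq2, against 0.957%). The remaining one set the EMPA effect in fibroblasts against that in cardiomyocytes (0.00827%; 1, against 15.2%, and 1 by DESeq2, against 1.83%). Fhl2 had the smallest FDR in both fibroblast differences, 1.62 ± 0.40 (FDR = 0.0645) for AMI and -1.43 ± 0.40 (FDR = 0.119) for EMPA, and it was the gene DESeq2 called in each (adjusted p = 0.0255 and 0.0343). With the list as a term, again shared by all populations, the first of these had an FDR of 0.0415.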

How the data were processed

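Libraries were made with a 3′ mRNA kit (QuantSeq), which counts transcript ends, so counts were not divided by length and levels of different genes were not ranked. The authors deposited 1 matrix of Salmon estimated counts per gene against GRCm39 after trimming with cutadapt 2.8. It holds 35682 genes and 38 libraries, and 4.55% of the values were not whole and were rounded. The other processing tools in the submitters' notes are FastQC and edgeR in R 4.0.3. Genes were named from GENCODE identifiers. CPM used TMM-scaled library sizes within a population, or across all libraries where populations were compared.

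Tests used edgeR 4.0.16 (R 4.3.3) with filterByExpr (minimum count 10), TMM and robust quasi-likelihood fits in each population, after the study's methods, and 1 fit of 9 groups across populations. Adjusted p-values (FDR) are Benjamini-Hochberg over all genes tested. Alternatives were DESeq2 1.42.0, RLE factors, no filter, no mitochondrially encoded genes, a list term, a replicate block, only 2 groups, and leaving out libraries. The script was tested on simulated data.

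Members and gene lists were chosen with earlier results of these data known. Values in every library are given for Myh6, Myh7, Myl2, Tnni3, Ttn, Ankrd1, Xirp1 and genes at an FDR under 0.1. Within a population, replicate numbers did not pair samples: the correlation of deviations ran from -0.113 to 0.482, and in no pair of groups was it over 0.1 for every number. No replicates were duplicates. Labels do not say which hearts were pooled, so p-values measure the spread between libraries.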

Additional observations from a re-analysis of the deposited data

Results flagged for a closer look

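The gap of the highest or lowest library to its neighbour, as a share of the group's range, was examined in 102 combinations of a group with the summed share or 1 of 12 named genes, and 4 exceeded Dixon's 95% critical value; chance alone marks about 1 in 20. Among Sham cardiomyocytes, Myh6 was high in library 1 (5967 CPM, the others 5438 to 5486), Myl2 was low in library 4 (4442 CPM, the others 5324 to 5388), and Myl7 was high in library 4 (99.2 CPM, the others 22.6 to 31.5). Library 4 also had the highest Nppa of the Sham cardiomyocyte libraries, 450 CPM against 150 to 192 CPM. The atrial marker Bmp10 was at 0.763 CPM there and highest in Sham library 3, at 4.45 CPM. Among Control-AMI cardiomyocytes, Myoz2 was low in library 3, at 49.3 CPM against 160 to 195 CPM in the other 4, and Smpx was lowest in the same library.

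The EMPA–Pre-AMI against Control-AMI effect on Fhl2 differed between ECs and cardiomyocytes by -1.94 (log2, edgeR, FDR = 0.0251). The value moved past an FDR of 0.05 when 1 of 3 EC libraries was left out, as given above. The EC fold change of Fhl2 was the median of the listed genes tested in ECs, -0.92.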

How the results depend on the processing

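No called gene changed direction, and all 31 genes stayed higher in Sham cardiomyocytes than in ECs and fibroblasts in each alternative run. The median over the listed genes in Control-AMI against Sham cardiomyocytes ran from -0.17 to 0.05 when each library was left out, so its sign is not settled. For EMPA–Pre-AMI against Control-AMI cardiomyocytes, the genes called were 5 with DESeq2 and 2 with no filter at an FDR of 0.05 (0 in the reported fit), and at 0.1 they were 6 with DESeq2 and 0 with the list as a term, with only the 2 groups, without EMPA–Pre-AMI libraries 2 and 3 or on list 4 alone (3 in the reported fit; the last pair of settings was chosen after seeing the data). With a replicate block they were 0 at 0.1, and in Control-AMI against Sham fibroblasts the block called 2 genes, Fhl2 and Myl7. The labels do not say that equal numbers belong together, and the block changed no other count by over 1.5 times. The same fibroblast comparison gave 2 genes with DESeq2 and 1 with RLE factors, no filter or the list term. EMPA–Pre-AMI against Sham ECs gave 1 with DESeq2 and 1 with no filter. Differences between populations gave 2 genes with DESeq2 for ECs and EMPA, 1 with DESeq2 and 1 with the list term for fibroblasts and AMI, and 1 with DESeq2 for fibroblasts and EMPA. Leaving out each library, calls ranged from 0 to 3 (FDR 0.05) and 0 to 6 (0.1) for EMPA–Pre-AMI against Control-AMI cardiomyocytes and from 0 to 1 and 0 to 4 against Sham. They ranged from 0 to 1 in both EMPA comparisons of ECs (1 without Sham 3 or Sham 1), in fibroblasts of Control-AMI (1 without Sham 4, Control-AMI 2 or EMPA–Pre-AMI 4) and EMPA–Pre-AMI against Sham (1 without Sham 4), and in the 3 differences that involve EMPA in ECs or either effect in fibroblasts. The causes were not tested. Counts of a few reads in ECs and fibroblasts leave 8 and 7 of the 31 genes untested.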
